A study of Mus musculus with 24 samples.

Results

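The genes described here encode the chains of fibrillar collagens and of collagen VI in mouse epididymal white adipose tissue (eWAT), together with lysyl oxidase. They were chosen by name. The 6 fibrillar chains are Col1a1, Col1a2, Col3a1, Col5a1, Col5a2 and Col5a3, the 3 chains of collagen VI are Col6a1, Col6a2 and Col6a3, and Lox is the cross-linking enzyme. These are 10 of the 16730 genes in the count table. All 10 passed the filter on low counts (1 CPM or more, in counts per 1000000, in 3 or more mice), which left 15020 genes to test.

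Fibrillar collagens are triple helices of 3 chains each that assemble outside the cell into the fibers that carry tension. Type I is built from Col1a1 and Col1a2 chains and type III from Col3a1 alone. Type V, built from Col5a1 with Col5a2 and, less commonly, Col5a3, helps to start the fibril and set its width. Collagen VI forms beaded microfilaments close to the cell surface, where it links basement membranes to the fibers. Its usual molecule holds 1 chain each of Col6a1, Col6a2 and Col6a3. Lysyl oxidase oxidizes lysines so that neighboring collagen molecules become covalently joined. In adipose tissue these proteins come largely from stromal cells and, for collagen VI, also from adipocytes, and they accumulate around adipocytes in obesity.

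Bulk RNA from whole epididymal fat of 24 male mice was measured with QuantSeq, which counts reads from the 3′ ends of transcripts, 1 library per mouse and 6 mice in each of 4 groups. Control mice (Lama4 fl/fl) carried floxed Lama4 alleles, and Lama4 AKO mice carried the same alleles with Cre driven by the adiponectin promoter, which is active in adipocytes and removes exon 3. Other cells of the fat pad keep Lama4. Each genotype received a chow diet (5015) or a high-fat diet (HFD, 45% fat) for 20 weeks, and the study's methods put the mice at 24 to 26 weeks of age at collection. By its figure legends, chow was given from weaning until 24 weeks of age and HFD from 6 to 26 weeks. Age thus followed diet, and the part of each in the diet differences cannot be told apart. All mice belonged to the strain labelled LFKO.

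Library totals ran from 5579590 to 18764516 counts. The 8 adipocyte markers (Adipoq and Plin1 among them) summed to 8998 CPM or more in every library, and 2 of 8 markers of the neighboring epididymis were in the table, with sums of at most 17.3 CPM. Lama4 itself, given as a check of the labels, had a median of 91.7 CPM in controls and 113 CPM in Lama4 AKO on chow, and of 78.7 and 44.3 CPM on HFD. The edgeR quasi-likelihood fit gave Lama4 log2 fold changes of 0.11 ± 0.34 (SE, adjusted p = 0.98) on chow and −0.69 ± 0.35 (adjusted p = 0.347) on HFD, and with 19 mice 0.06 on chow and 0.14 on HFD, where the direction turned. The libraries labelled Lama4 AKO were not told apart from the controls by this gene. These reads lie at the 3′ end, outside the deleted exon, and therefore do not check the deletion.

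Of the 10 genes, 7 have a RefSeq start site in the promoter table used here (GRCm38.p6), and Col1a1, Col5a2 and Lox have no entry in it. The 250 bases upstream of the start are printed for Col3a1 and Col6a3, because the levels of these genes from different collagen classes varied together across mice (described further on), and for Col5a1, a fibrillar chain that varied with them less closely. The capitals mark matches to 3 common promoter letter strings, searched on both strands: TATAAA (the TATA box letters), CCAAT and GGGCGG (the GC box letters). No match overlapped a match to another string in the windows printed. The Col3a1 window is chr1:45311288-45311537, plus strand. The Col6a3 window is chr1:90843972-90844221, minus strand. The Col5a1 window is chr2:27886175-27886424, plus strand.
Col3a1: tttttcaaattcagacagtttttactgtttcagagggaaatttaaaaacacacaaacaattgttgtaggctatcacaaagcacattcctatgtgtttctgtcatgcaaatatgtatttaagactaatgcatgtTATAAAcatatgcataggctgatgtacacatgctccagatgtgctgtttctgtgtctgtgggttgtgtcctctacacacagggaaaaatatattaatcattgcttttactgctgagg
Col6a3: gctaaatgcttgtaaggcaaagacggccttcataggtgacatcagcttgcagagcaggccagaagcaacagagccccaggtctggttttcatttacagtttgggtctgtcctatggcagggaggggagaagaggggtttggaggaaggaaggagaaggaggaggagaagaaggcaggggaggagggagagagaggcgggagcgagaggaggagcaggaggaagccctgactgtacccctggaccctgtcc
Col5a1: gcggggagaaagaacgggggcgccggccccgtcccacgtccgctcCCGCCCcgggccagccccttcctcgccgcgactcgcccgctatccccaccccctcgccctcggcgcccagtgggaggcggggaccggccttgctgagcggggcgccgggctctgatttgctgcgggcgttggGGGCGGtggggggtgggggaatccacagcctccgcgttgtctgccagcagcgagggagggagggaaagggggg

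The 3 windows differ in base composition. The Col3a1 window is 35.2% G and C and holds 1 TATAAA, a string found in 12.4% of 32841 windows of the same length. The Col6a3 window is 57.2% G and C and holds none of the 3 strings. The Col5a1 window is 76.4% G and C and holds 2 GGGCGG, which 32.7% of all windows hold at least once. The letters CCAAT, found in 33.9% of windows, were in none of the 3. Col3a1 and Col6a3 had none of the 3 strings in common. A match describes letters and is no measured binding site, and the absence of a match says nothing about a factor.

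Levels are given in CPM after trimmed-mean (TMM) scaling, as the lowest, median and highest of 6 mice. Because reads come from 3′ ends and levels depend on each gene's own capture, they are compared between groups for 1 gene and not between genes. In bulk tissue, fewer cells of a type and less RNA per cell cannot be told apart.

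Col1a1, the chain present as a pair in type I collagen, had 363, 621 and 900 CPM in chow-fed Lama4 fl/fl mice. In chow-fed Lama4 AKO mice it had 418, 650 and 1457 CPM. In HFD-fed Lama4 fl/fl mice it had 549, 939 and 1280 CPM, and in HFD-fed Lama4 AKO mice 896, 1358 and 1611 CPM. The order of the medians was thus chow-fed fl/fl, chow-fed AKO, HFD-fed fl/fl, HFD-fed AKO, and every neighboring pair overlapped. Col1a2, the partner chain in the same molecule, had the opposite order of diets. Its values were 434, 1272 and 1641 CPM in chow-fed Lama4 fl/fl and 865, 1272 and 1748 CPM in chow-fed Lama4 AKO. On HFD it had 632, 1056 and 1637 CPM in Lama4 fl/fl and 802, 970 and 1745 CPM in Lama4 AKO. All 4 groups overlapped over most of their range.

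Col3a1, the single chain of type III collagen, which is laid down with type I in distensible tissues, had the highest values in HFD-fed Lama4 AKO mice (1869, 2158 and 2852 CPM). It had 1136, 1363 and 1923 CPM in HFD-fed Lama4 fl/fl. On chow it had 648, 1547 and 2205 CPM in Lama4 fl/fl and 830, 1289 and 2472 CPM in Lama4 AKO. The 3 groups other than HFD-fed Lama4 AKO had similar medians with wide overlap, and the HFD-fed AKO values overlapped each of them.

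The type V chains followed different orders. Col5a1, the chain common to type V molecules, had 131, 144 and 217 CPM in chow-fed Lama4 fl/fl and 148, 214 and 234 CPM in chow-fed Lama4 AKO. On HFD it had 148, 191 and 217 CPM in Lama4 fl/fl and 177, 256 and 304 CPM in Lama4 AKO. Lama4 AKO thus had the higher median on both diets, with overlap on both. Col5a2, the second chain of the most common type V molecule, had medians of 184, 164, 190 and 229 CPM in chow-fed fl/fl, chow-fed AKO, HFD-fed fl/fl and HFD-fed AKO. Its whole range was 99.1 to 332 CPM, with the lowest value in a chow-fed Lama4 fl/fl mouse and the highest in an HFD-fed Lama4 AKO mouse. Col5a3, the less common type V chain, had medians of 211, 277, 254 and 287 CPM in the same sequence of groups. It ranged from 167 to 439 CPM, both ends within HFD-fed Lama4 fl/fl.

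Among the collagen VI chains, Col6a1 had its lowest values in chow-fed Lama4 fl/fl mice (133, 155 and 182 CPM). It had 149, 227 and 362 CPM in chow-fed Lama4 AKO, 175, 237 and 277 CPM in HFD-fed Lama4 fl/fl, and 185, 204 and 259 CPM in HFD-fed Lama4 AKO. Of the chow-fed Lama4 AKO mice, 5 of 6 were above every chow-fed Lama4 fl/fl mouse and 1 was inside their range. The 3 groups with the higher medians overlapped one another.

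Col6a2 had 181, 256 and 341 CPM in chow-fed Lama4 fl/fl and 247, 351 and 423 CPM in chow-fed Lama4 AKO. On HFD it had 294, 344 and 358 CPM in Lama4 fl/fl and 366, 410 and 424 CPM in Lama4 AKO. The HFD groups had narrow ranges that did not overlap, while the chow groups were wide. Col6a3, the longest chain, whose cleaved end is the signaling peptide endotrophin, had 189, 433 and 652 CPM in chow-fed Lama4 fl/fl and 244, 396 and 598 CPM in chow-fed Lama4 AKO. On HFD it had 352, 488 and 545 CPM in Lama4 fl/fl and 557, 703 and 936 CPM in Lama4 AKO. Here too the HFD-fed genotypes did not overlap, and the chow-fed genotypes overlapped almost completely.

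Lox had 74.2, 95.4 and 116 CPM in chow-fed Lama4 fl/fl and 74.2, 89.0 and 169 CPM in chow-fed Lama4 AKO. On HFD it had 66.7, 92.9 and 132 CPM in Lama4 fl/fl and 74.6, 81.6 and 86.4 CPM in Lama4 AKO. The medians of all 4 groups lay close together, and HFD-fed Lama4 AKO had the narrowest range.

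**Figure D1:**
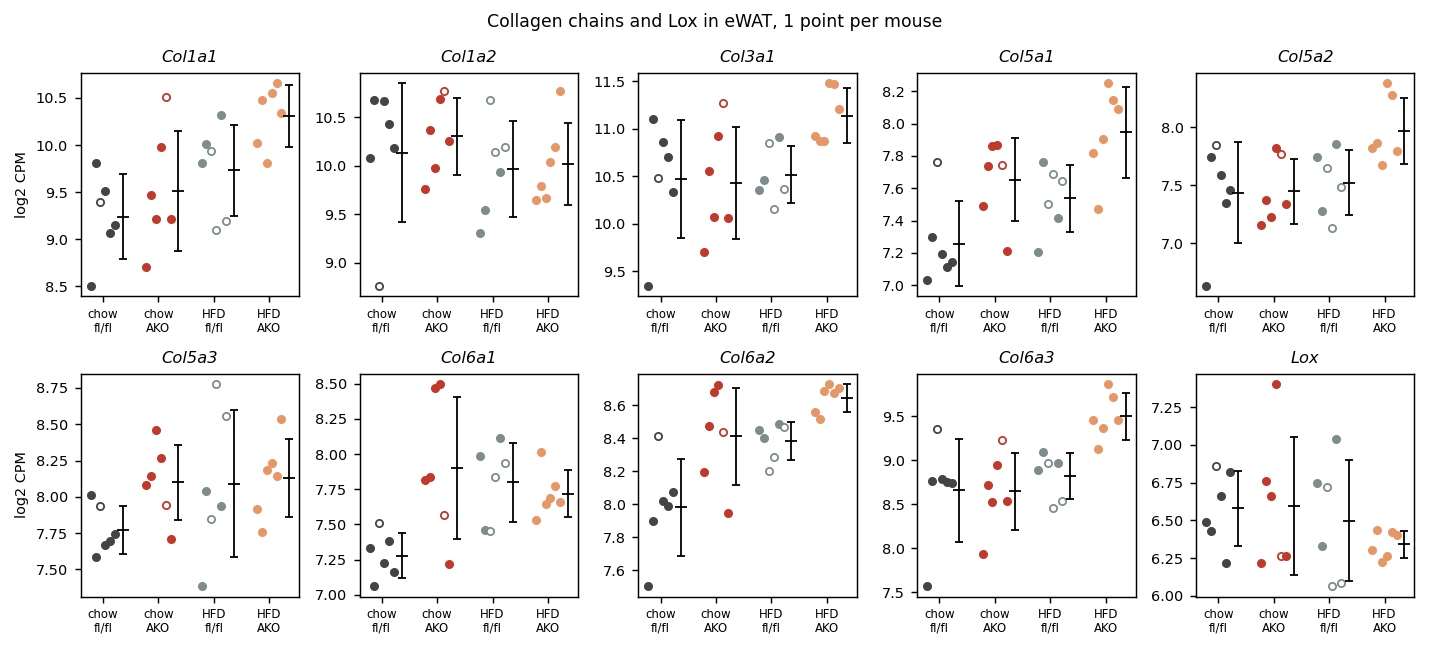
Level of each of the 10 genes in every mouse, as log2 CPM on the vertical axis (a separate scale for each gene), for the 4 groups on the horizontal axis. Each point is 1 mouse, the bars are the mean ± SD of 6 mice, and open points are the 5 mice left out of the 19-mouse fit. Col6a2 and Col6a3 separate the HFD-fed genotypes, and Col6a1 is lowest in chow-fed Lama4 fl/fl.

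Group differences were tested with edgeR over all 15020 genes, with 1 coefficient for each of the 4 groups. A gene was called when the fold change reached 1.5, the unadjusted p was 0.001 or less and the group with the higher level averaged 2 CPM or more, after the study's criteria, and Benjamini-Hochberg adjusted p-values over all genes are given beside it. The study removed some mice as outliers, which the text used here does not name. The same fit was therefore also run on 19 mice, leaving out 1 mouse of each genotype on chow and 3 HFD-fed controls, a set inferred in earlier work on these data and not given by the study. The mice left out were extreme for their group on the widest variation between libraries (described further on). Diet and genotype differences with 19 mice are therefore not independent of this choice. Each result below rests on 24 mice unless 19 are named.

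The effect of HFD in Lama4 AKO mice was tested first. Col6a3 had the largest difference of the 10 genes, with 0.82 ± 0.23 on the log2 scale, followed by Col1a1 (0.70 ± 0.27), Col3a1 (0.63 ± 0.26) and Col5a2 (0.52 ± 0.19), while Col6a1 (−0.25 ± 0.18), Col1a2 (−0.27 ± 0.28) and Lox (−0.32 ± 0.19) had negative estimates. None of the 10 was called, against 4.12% of all genes (1.29% called higher), and 4 had an unadjusted p under 0.05 in edgeR, against 39.8% of all genes. At an adjusted p of at most 0.05 with no fold criterion, Col6a3 (adjusted p = 0.0227, edgeR) and Col5a2 (adjusted p = 0.0469, edgeR) rose, which is 2 of 10 against 22.1% of all genes, close to that background. Col1a1 had an adjusted p of 0.0635 and Col3a1 of 0.082 in the same edgeR fit. The remaining fibrillar chains had small estimates, Col5a1 0.30 ± 0.15 and Col5a3 0.03 ± 0.19, and Col6a2 had 0.21 ± 0.14.

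With 19 mice, the same comparison called Col6a3 (0.95 ± 0.21, adjusted p = 0.00224) and Col1a1 (0.96 ± 0.24, adjusted p = 0.00452) as higher in edgeR, against 15.7% of all genes called and 6.12% called higher. Col3a1 (0.84 ± 0.27) and Col5a2 (0.59 ± 0.19) did not meet the rule, and their adjusted p-values in edgeR were 0.0198 and 0.0205. In the 24-mouse fit, leaving out 1 mouse at a time called Col6a3 in 3 of 24 fits, namely without the chow-fed Lama4 fl/fl mouse 1 or 3 or the chow-fed Lama4 AKO mouse 5, and its log2 difference ran from 0.70 to 0.94. Over all genes, these fits called from 299 to 1169 genes, against 619 with 24 mice. The highest number, 1169, came without chow-fed Lama4 AKO mouse 5.

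Markers of other cells moved with this comparison. The 8 macrophage markers summed to between 2020 and 7666 CPM (median 3633) in chow-fed Lama4 AKO and between 6267 and 12261 CPM (median 8769) on HFD. The 6 stromal progenitor markers summed to between 332 and 480 CPM (median 396) on chow and between 477 and 597 CPM (median 553) on HFD, and the 8 adipocyte markers had a median sum of 27086 CPM on chow and 10567 CPM on HFD. The endothelial markers (5) had median sums of 525 CPM (304 to 691) on chow and 266 CPM (211 to 438) on HFD, the mural markers (5) 286 CPM (120 to 447) and 144 CPM (89.4 to 201), and the mesothelial markers (6) 59.6 CPM (27.9 to 157) and 39.7 CPM (10.2 to 58.3). At an adjusted p of at most 0.05 in edgeR, 3 endothelial, 2 mesothelial, 1 mural and 2 adipocyte markers fell, and 2 macrophage and 1 progenitor markers rose. None of these markers was at 0 in every library. Their part in the collagen differences was not tested.

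In Lama4 fl/fl mice, the collagen VI chains Col6a1 and Col6a2 had higher levels on HFD than on chow, but none of the 10 genes was called, against 0.173% of all genes. Col6a1 differed by 0.54 ± 0.18 on the log2 scale (adjusted p = 0.448, edgeR) and Col6a2 by 0.38 ± 0.14 (adjusted p = 0.448, edgeR). Col6a3 (0.09 ± 0.22) and Col3a1 (−0.03 ± 0.26), which had among the larger estimates in Lama4 AKO, were near 0 here. Col1a1 had 0.50 ± 0.27, Col1a2 −0.22 ± 0.28, Col5a1 0.27 ± 0.15, Col5a2 0.06 ± 0.19, Col5a3 0.38 ± 0.19 and Lox −0.05 ± 0.19. No gene of the 15020 passed an adjusted p of 0.05 in this comparison, where 9.01% of all genes, and 2 of the 10 (Col6a1 and Col6a2), had an unadjusted p under 0.05 in edgeR.

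Leaving out the 5 mice changed this comparison over all genes. With 19 mice, 11.8% of all genes were called, and still none of the 10. The pair of type I chains then had estimates of opposite sign, with Col1a1 at 0.79 ± 0.28 (adjusted p = 0.0401, edgeR) and Col1a2 at −0.81 ± 0.27 (adjusted p = 0.0315, edgeR). Col6a1 had 0.64 ± 0.22 and Col6a2 0.54 ± 0.17, with adjusted p-values of 0.0375 and 0.0218 in edgeR. At an adjusted p of at most 0.05 these 4 genes passed, against 29% of all genes.

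Averaged over both genotypes, Col1a1 was higher on HFD by 0.60 ± 0.19 (adjusted p = 0.0447, edgeR), the only 1 of the 10 genes with an adjusted p of at most 0.05, against 12.4% of all genes. None was called, against 2.22% of all genes, and 5 had an unadjusted p under 0.05 in edgeR, against 35.5% of all genes. Col6a3 (0.45 ± 0.16, adjusted p = 0.0581) and Col6a2 (0.30 ± 0.10, adjusted p = 0.051) lay just outside in the same edgeR fit. With 19 mice, Col1a1 (0.88 ± 0.18) and Col6a3 (0.67 ± 0.16) were called, against 21.2% of all genes. Without chow-fed Lama4 AKO mouse 5, Col1a1 was also called with the remaining mice (0.74 ± 0.18). Over all genes, fits that left out 1 mouse called from 202 to 684 genes, against 334 with 24 mice.

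The difference between the diet responses of the genotypes, the interaction term, was not called for any of the 10 genes, against 0.386% of all genes, and 2 had an unadjusted p under 0.05 in edgeR, against 15.6% of all genes. Its estimates had opposite signs for a pair of collagen VI chains. The estimate for Col6a3 was higher in Lama4 AKO (0.73 ± 0.32, adjusted p = 0.288, edgeR) and that for Col6a1 lower (−0.78 ± 0.26, adjusted p = 0.244, edgeR). The fibrillar estimates ran from −0.35 for Col5a3 to 0.66 for Col3a1. Col6a1 was called (−0.92 ± 0.24) only when chow-fed Lama4 AKO mouse 6 was left out, of 24 such fits. Over all genes, these fits called from 29 to 188 genes, against 58 with 24 mice.

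**Figure D2:**
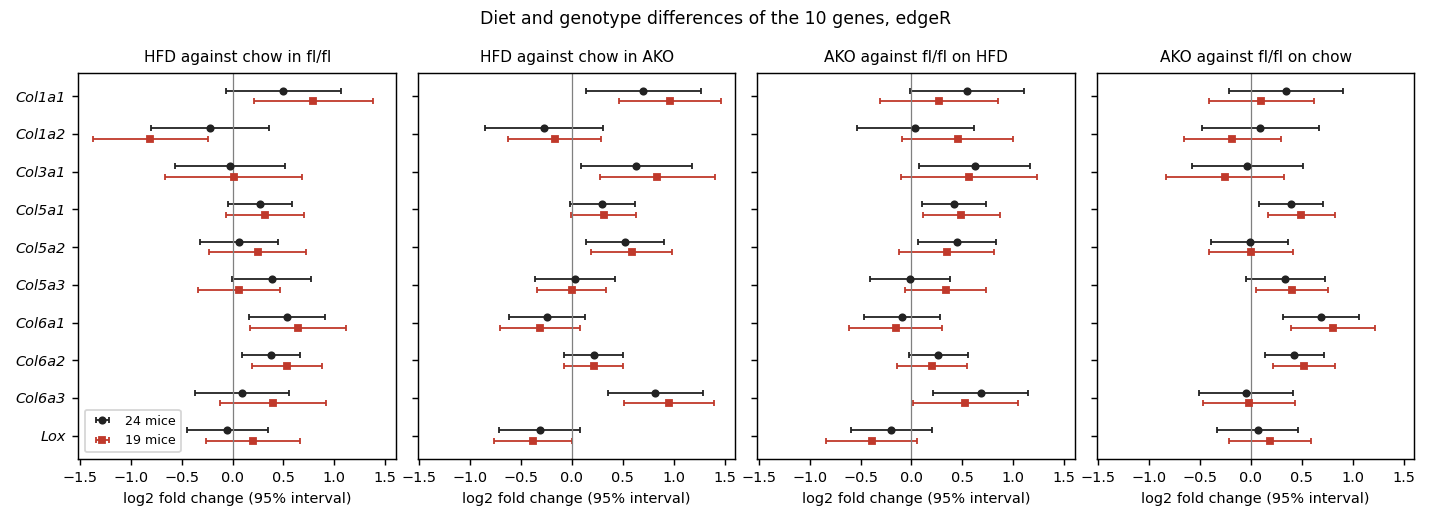
Log2 fold change with its 95% interval on the horizontal axis for each of the 10 genes, in 4 comparisons, from edgeR with all 24 mice (circles) and with 19 mice (squares). Col1a1 and Col6a3 lie to the right for HFD in Lama4 AKO, Col6a1 lies to the right for Lama4 AKO on chow, and the interval of Col1a2 for HFD in Lama4 fl/fl leaves 0 with 19 mice only.

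On HFD, the genotype comparison asked whether adipocyte Lama4 deletion was accompanied by other collagen mRNA levels in obesity. Col6a2 and Col6a3 were higher in all 6 Lama4 AKO mice than in all 6 Lama4 fl/fl mice, 2 of 10 genes against 0.399% of all genes. The differences were 0.26 ± 0.14 for Col6a2 and 0.68 ± 0.23 for Col6a3 on the log2 scale, with adjusted p-values of 0.368 and 0.291 in edgeR. Library totals did not overlap between these groups either. They ran from 12450619 to 16787814 counts in HFD-fed Lama4 fl/fl and from 9156492 to 11640690 in HFD-fed Lama4 AKO. The part of library depth in these differences was not tested. None of the 10 was called, against 0.173% of all genes, and 0 of 15020 genes passed an adjusted p of 0.05 in edgeR, while 14.8% of all genes, and 4 of the 10, had an unadjusted p under 0.05. Of the fibrillar chains, Col3a1 (0.62 ± 0.26), Col1a1 (0.54 ± 0.27), Col5a2 (0.45 ± 0.19) and Col5a1 (0.42 ± 0.15) had positive estimates, and Col1a2 (0.04 ± 0.28) and Col5a3 (−0.01 ± 0.19) were near 0. Col6a1 had −0.09 ± 0.18 and Lox −0.20 ± 0.19.

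With 19 mice the HFD-fed Lama4 fl/fl group falls to 3 mice. Col6a3 then differed by 0.53 ± 0.25 (adjusted p = 0.432, edgeR), Col1a1 by 0.27 ± 0.28, and none of the 10 was called, against 0.565% of all genes. The 8 adipocyte markers had a median sum of 18730 CPM in HFD-fed Lama4 fl/fl (8998 to 43539) and 10567 CPM in HFD-fed Lama4 AKO (9153 to 24010). The 6 stromal progenitor markers had median sums of 518 CPM (380 to 824) and 553 CPM (477 to 597). The macrophage markers had median sums of 6155 CPM (2004 to 12076) and 8769 CPM (6267 to 12261). In the same order of groups, endothelial markers had median sums of 334 CPM (189 to 573) and 266 CPM (211 to 438). Mural markers had 200 CPM (98.5 to 289) and 144 CPM (89.4 to 201), and mesothelial markers 60.2 CPM (20.2 to 85.7) and 39.7 CPM (10.2 to 58.3). Each of these sums ranged more widely in HFD-fed Lama4 fl/fl than in HFD-fed Lama4 AKO. The part of these markers in the collagen differences on HFD was not tested.

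On chow, Col6a1 was called, at 0.69 ± 0.18 on the log2 scale higher in Lama4 AKO (unadjusted p of 0.000883, adjusted p = 0.634, edgeR). This is 1 of 10 genes, against 0.113% of all genes called and 0.0666% called higher. Col6a2 differed in the same direction by 0.43 ± 0.14 (adjusted p = 0.744, edgeR) and Col5a1 by 0.39 ± 0.15 (adjusted p = 0.794, edgeR), without being called. Col6a3 (−0.05 ± 0.23), Col3a1 (−0.03 ± 0.26) and Col5a2 (−0.01 ± 0.19) were near 0 on chow, while Col1a1 had 0.34 ± 0.27, Col5a3 0.34 ± 0.19, Col1a2 0.09 ± 0.28 and Lox 0.07 ± 0.19. No gene had an adjusted p of at most 0.05, while 5.85% of all genes, and 3 of the 10, had an unadjusted p under 0.05 in edgeR.

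Over all genes, leaving out 1 mouse moved the number called on chow from 17 to between 4, without chow-fed Lama4 AKO mouse 3, and 65, without chow-fed Lama4 fl/fl mouse 1. The Col6a1 call was close to its threshold. It held with 19 mice (0.81 ± 0.20, 0.209% of all genes called) in edgeR and with DESeq2 (0.70 ± 0.18). The 19-mouse fit is no separate check of the call. It leaves out chow-fed Lama4 fl/fl mouse 3 and Lama4 AKO mouse 5, and leaving out either alone gave 0.74 and 0.77 and kept the call. The call was lost with limma-voom (0.61 ± 0.18), when only the chow groups entered edgeR (0.70 ± 0.21), and in 17 of 24 edgeR fits that left out 1 mouse, over which the log2 difference ran from 0.56, without chow-fed Lama4 AKO mouse 4, to 0.81, without chow-fed Lama4 AKO mouse 6. Macrophage markers had a median sum of 6812 CPM in chow-fed Lama4 fl/fl (1337 to 9971) and 3633 CPM in chow-fed Lama4 AKO (2020 to 7666), adipocyte markers 31254 and 27086 CPM, and stromal progenitor markers 418 and 396 CPM. In the same order of groups, endothelial markers had median sums of 377 and 525 CPM. Mural markers had 218 and 286 CPM, and mesothelial markers 51.3 and 59.6 CPM. The part of these markers in the Col6a1 difference was not tested.

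Averaged over diets, Lama4 AKO mice had higher estimates for Col5a1 (0.41 ± 0.11, adjusted p = 0.90, edgeR) and Col6a2 (0.35 ± 0.10, adjusted p = 0.953, edgeR). Neither was called, and of all genes 0.0266% were. Both had positive estimates on each diet. At an unadjusted p under 0.05 in edgeR, 4 of the 10 passed, against 4.6% of all genes.

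The 6 fibrillar chains were set beside the 3 collagen VI chains in each comparison. In Lama4 fl/fl, HFD against chow gave a median log2 fold change of 0.17 for the fibrillar chains and 0.38 for collagen VI, beside −0.01 over all genes. In Lama4 AKO the medians were 0.41 and 0.21, beside −0.00 over all genes. For Lama4 AKO against fl/fl they were 0.43 and 0.26 on HFD, beside −0.03 over all genes, and 0.22 and 0.43 on chow, beside 0.00. The larger median was therefore that of collagen VI for diet in fl/fl and for genotype on chow, and that of the fibrillar chains for diet in AKO and for genotype on HFD. The 4 comparisons share groups, so these orders are not separate observations. With 3 chains, each collagen VI median was the estimate of Col6a2 alone. Col6a1 and Col6a3 lay on either side of it, with opposite signs in all but HFD against chow in Lama4 fl/fl. The median therefore does not describe collagen VI as a whole.

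Within each mouse, the mean log2 CPM of the fibrillar chains minus that of the collagen VI chains was 0.74 ± 0.29 (SD, n = 6) in controls and 0.59 ± 0.23 in Lama4 AKO on chow, then 0.56 ± 0.22 in HFD-fed Lama4 fl/fl and 0.63 ± 0.17 in HFD-fed Lama4 AKO. The class difference changed by −0.18 with HFD in Lama4 fl/fl and by 0.04 in Lama4 AKO, and by −0.16 between genotypes on chow and 0.07 on HFD. The SD between mice of a group was 0.23. These are descriptions without a test, since the genes were chosen together, and they do not show that the classes moved alike. With 19 mice, the change with HFD in Lama4 fl/fl was −0.42, that between genotypes on chow −0.32 and the interaction 0.53 (0.23 with 24 mice).

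Chains of the same molecule were also set beside each other within each mouse. The pairs were picked after their values were seen, and no test is given for them. The size of such a difference depends on how each gene is captured, so its change between groups is what is described. Col1a1 minus Col1a2, in log2 CPM within a mouse, had a mean of −0.89 ± 0.79 (SD, n = 6) in controls and −0.79 ± 0.29 in Lama4 AKO on chow, −0.24 ± 0.76 in HFD-fed Lama4 fl/fl and 0.29 ± 0.40 in HFD-fed Lama4 AKO. The groups overlapped in these 24 mice. The chow-fed Lama4 fl/fl mouse with the highest value (mouse 3, 0.64) and the 3 HFD-fed Lama4 fl/fl mice with the lowest values are among the 5 left out of the 19-mouse fit. With 19 mice, all HFD-fed Lama4 fl/fl mice lay between 0.38 and 0.51 and all chow-fed Lama4 fl/fl mice between −1.57 and −0.87. This separation depends on which mice were left out.

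Col6a3 minus Col6a1 had a mean of 1.38 ± 0.58 (SD, n = 6) in controls and 0.75 ± 0.65 in Lama4 AKO on chow, 1.02 ± 0.45 in HFD-fed Lama4 fl/fl and 1.78 ± 0.36 in HFD-fed Lama4 AKO. Lama4 AKO thus had the lower mean of the genotypes on chow and the higher on HFD, with overlap on both diets. Col6a2 minus Col6a1 had means of 0.70, 0.51, 0.58 and 0.93 in the same order of groups, with SDs between 0.21 and 0.28.

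**Figure D3:**
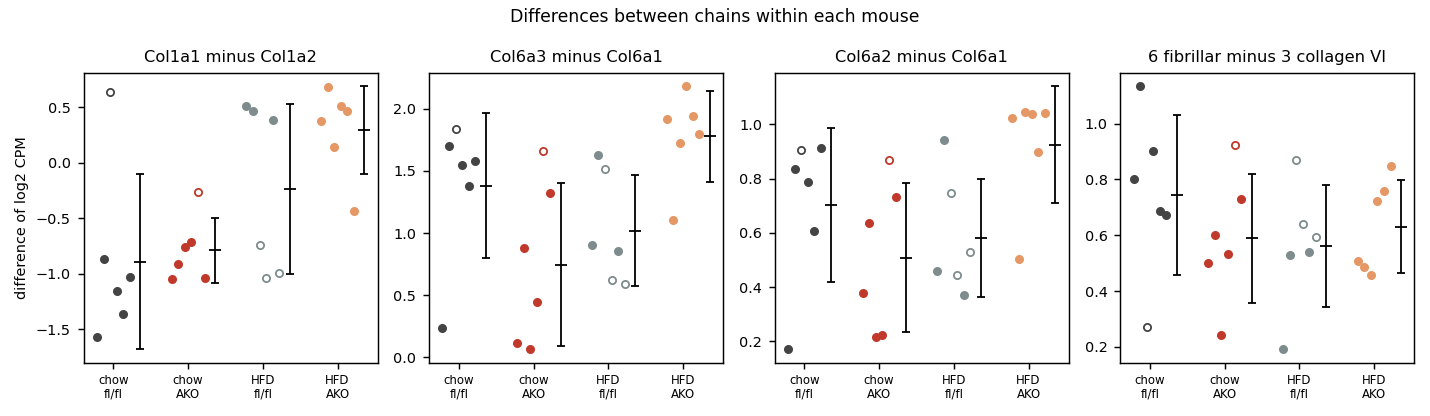
Differences of log2 CPM between chains within each mouse, on the vertical axis, for the 4 groups on the horizontal axis. Each point is 1 mouse, the bars are the mean ± SD of 6 mice, and open points are the 5 mice left out of the 19-mouse fit. Col1a1 minus Col1a2 has its highest mean (0.29) in HFD-fed Lama4 AKO, and the fibrillar chains minus collagen VI overlap in all 4 groups.

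Across the 24 mice, with group means subtracted, Col1a1, Col3a1, Col5a2 and Col6a3 had similar profiles. Pearson's r was 0.88 for Col1a1 with Col3a1, 0.79 for Col1a1 with Col5a2 and 0.83 for Col3a1 with Col5a2. Col6a3 had r of 0.78, 0.82 and 0.83 with these 3 fibrillar chains. The values of a mouse share 1 library, its depth and its mix of cells, so r is a description without a test. The chains of collagen VI were less alike than this, with r of −0.04 for Col6a1 with Col6a3, 0.60 for Col6a1 with Col6a2 and 0.67 for Col6a2 with Col6a3. Col1a1 and Col1a2, which form 1 molecule, had r of 0.29, and 0.45 with 19 mice. Col5a3 was closest to Col5a1 (0.62) and negative with Col1a1 (−0.38).

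The first principal component of all tested genes held 45.8% of their variance across the 24 mice. Within groups, its r was 0.71 with Col6a3, 0.68 with Col1a1, 0.66 with Col5a2 and 0.49 with Col3a1, while it was −0.73 with Col5a3, −0.34 with Col1a2 and −0.17 with Col6a1. The sign of the component was set by the mean of the 10 genes. The mice left out of the 19-mouse fit had the highest value of their group on chow (46.8 in Lama4 fl/fl, 22.1 in Lama4 AKO). In HFD-fed Lama4 fl/fl they had the lowest values (−9.88, −60.4 and −76.1). Diet and genotype differences with 19 mice are thus not independent of this component. Col1a1, Col3a1, Col5a2 and Col6a3, which were close to one another, thus also followed the widest variation of the whole libraries, Col3a1 less closely. Col5a3, which was not close to them, followed it in the opposite direction with the largest r in size. The part of that variation in the group differences of these genes was not tested.

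**Figure D4:**
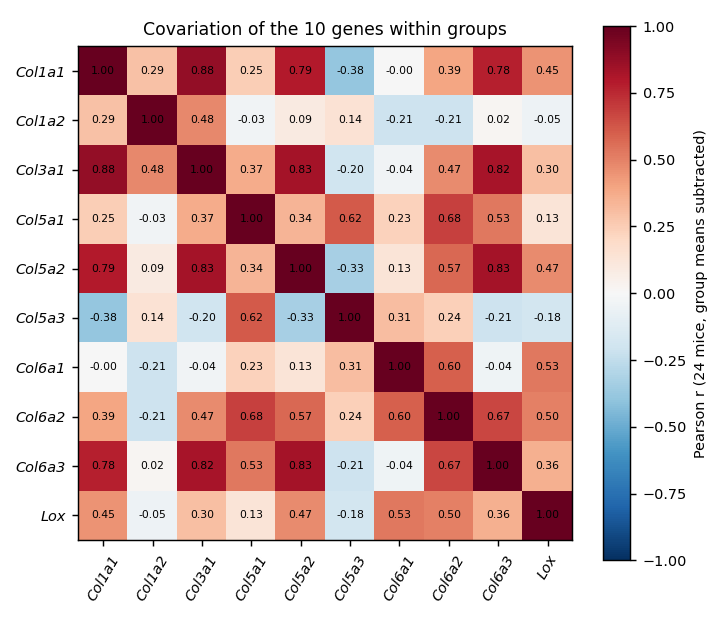
Pearson's r between each pair of the 10 genes over 24 mice after group means were subtracted, on a color scale from −1 to 1 with the value in each cell. Col1a1, Col3a1, Col5a2 and Col6a3 have r of 0.78 or more with one another, and Col6a1 has r near 0 with each of Col1a1, Col3a1 and Col6a3.

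Of the 15010 other tested genes, those with profiles nearest to the mean of the fibrillar chains over the 24 mice were Mfap3l (r = 0.81), Postn (0.81), Mastl (0.80), Nptx1 (0.79) and Yipf7 (0.78). Postn encodes periostin, a matrix protein of collagen-rich tissue. The nearest to the mean of collagen VI were Fdps (0.79), Nhp2 (0.78), Vma21 (0.77), Paqr7 (0.77) and Dhcr7 (0.77), of which Fdps and Dhcr7 encode enzymes of sterol synthesis. The lists had no gene in common, which with so few genes taken from 15010 does not set the classes apart.

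The other genes of collagen production, assembly and sensing were followed in 6 lists of 78 genes, of which 70 were tested. In Lama4 AKO, HFD against chow called 3 of these higher and 3 lower, against 4.12% of all genes called, and 14 higher and 7 lower with 19 mice, against 15.7% of all genes. At an adjusted p of at most 0.05, 18 rose and 9 fell, against 9.13% of all genes higher and 12.9% lower. Antxr1 (1.12 ± 0.21, adjusted p = 0.0124), a cell surface receptor that binds collagens and the endotrophin end of Col6a3, was called higher by edgeR. Fn1 (0.90 ± 0.24), the fibronectin on which collagen fibers assemble, and Pdgfra (0.69 ± 0.18), a growth factor receptor of stromal progenitors that is also in the progenitor marker list, were called higher too. Called lower were Loxl4 (−1.69 ± 0.44), a relative of Lox, Pcolce2 (−1.55 ± 0.41), an enhancer of procollagen cleavage, and Smad7 (−1.33 ± 0.35), an inhibitor of TGF-beta signaling.

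By role, processing and cross-linking genes had 5 higher and 2 lower of 10 tested at an adjusted p of at most 0.05 in this comparison. Bmp1 (0.64 ± 0.17), the protease that removes the C-terminal propeptide, Loxl2 (0.62 ± 0.19) and Loxl3 (0.79 ± 0.22) were among those that rose, while Lox had −0.32 ± 0.19. The biosynthesis enzymes had 3 higher and 1 lower of 19, among them Crtap (0.56 ± 0.17), a partner in prolyl 3-hydroxylation. The fibril partners had 3 higher and 0 lower of 13, with Postn (0.98 ± 0.31) and the proteoglycan gene Bgn beside Fn1. The receptors had 4 higher and 3 lower of 11. Antxr2 (0.62 ± 0.17) and Mrc2 (0.58 ± 0.18), an endocytic collagen receptor, rose, and Itga1 (−1.28 ± 0.38) and Itgb1 (−0.63 ± 0.20), the subunits of a collagen-binding integrin, and Ddr1 (−1.01 ± 0.35), a kinase activated by collagen, fell. The TGF-beta related genes had 3 higher and 3 lower of 14, with Tgfbr1 (1.07 ± 0.29) and Tgfbr2 (0.68 ± 0.22) higher and the contractile genes Acta2 (−1.71 ± 0.56) and Tagln (−1.46 ± 0.48) lower. Of the 3 tested genes among the other fibrillar and collagen VI chains, 0 passed.

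Averaged over genotypes, 4 of the 70 were called higher on HFD and 0 lower, against 2.22% of all genes. With 19 mice 16 were called higher and 5 lower, against 21.2% of all genes. They were P3h3 (1.07 ± 0.27), a relative of the prolyl 3-hydroxylases, Fn1 (0.74 ± 0.17), Antxr1 (0.71 ± 0.15) and Itga11 (0.82 ± 0.20), a collagen-binding integrin chain, which was not called with 19 mice. At an adjusted p of at most 0.05, 13 were higher and 1 lower, against 12.4% of all genes in either direction. Bmp1 (0.58 ± 0.12), Mrc2 (0.55 ± 0.13), Tnxb (0.68 ± 0.18), a tenascin that binds collagen fibrils, Loxl3 (0.52 ± 0.16), P4ha3 (1.70 ± 0.51), a prolyl 4-hydroxylase subunit, Tgfbr1 (0.66 ± 0.20) and Tgfbr2 (0.53 ± 0.16) were among those higher, and Smad7 (−0.80 ± 0.25) was the one lower. Colgalt1 (0.59 ± 0.20), which adds galactose to collagen, Bgn (0.68 ± 0.23) and Col27a1 (0.29 ± 0.20) did not pass. In the other 5 comparisons edgeR called none of the 70. At an unadjusted p under 0.05 in edgeR, 13 of 70 passed for HFD in Lama4 fl/fl, against 9.01% of all genes. For genotype on HFD 15 passed, against 14.8%, and for genotype on chow 5, against 5.85%. For the interaction 13 passed, against 15.6%, and for genotype averaged over diets 4, against 4.6%. With 19 mice 7 were called higher for HFD in Lama4 fl/fl, among them Fn1 (1.14) and Bmp1 (0.97), against 11.8% of all genes called, a share near that of the list. Col6a6 (0.16 ± 0.16) and Col6a5 (0.08 ± 0.26), the other collagen VI chains tested, had averaged diet estimates near 0.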

How the data were processed

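RNA from flash-frozen epididymal fat of 24 male mice was extracted with a lipid tissue kit, and 3′ end libraries (Lexogen QuantSeq, forward reads) were sequenced. Per the study's methods, the authors counted reads per gene with the Lexogen pipeline on the Bluebee platform, took the count matrices with Rsubread and tested genes with limma-voom. The submitters' processing notes name GRCm38 (mm10), R 4.0.3 and DESeq2 1.30. The raw counts are whole numbers per gene as deposited by the authors and were the input of every test. The deposited normalized signal table, which the authors made by dividing the counts by 1 size factor per library, was used for gene symbols and positions (14067 symbols).

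Groups came from the sample titles. Counts were analyzed in R 4.3.3 with edgeR 4.0.16 (TMM scaling, genes reaching 1 CPM in 3 or more mice, quasi-likelihood test, 15020 genes). Levels are CPM, and log2 CPM uses a prior count of 2. The call rule was at least 1.5-fold, unadjusted p of at most 0.001 and a group mean of at least 2 CPM, and p-values were adjusted by the Benjamini-Hochberg method across the tested genes. Alternatives used limma 3.58.1, DESeq2 1.42.0, RLE scaling, other filters and call criteria, only the groups compared, a replicate block, 19 mice and each mouse left out. The rule named all 10 genes, Lama4, list genes called in any comparison, the 3 lowest p-values per list in the averaged diet comparison and 5 nearest genes per class. Other list genes were named after their values were seen. The members, lists and tests were chosen with earlier results of these data known. Of the 19-mouse set, 14863 genes were tested. Nothing in the labels says whether mice of a group were bred or processed apart, so p-values measure the spread between these libraries. No 2 libraries of a group were copies (r 0.859 to 0.984 over 60 pairs). Each of the 10 genes had at least 450 counts in every library. All 10 gene positions equal those of the GENCODE annotation, and no annotated gene overlaps the last 2000 bases of any of them, where the reads fall. Scripts were tested on simulated data.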

Additional observations from a re-analysis of the deposited data

Results flagged for a closer look

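For 3 of 44 gene and group combinations checked (the 10 genes and Lama4 in 4 groups of 6 mice), 1 mouse stood far from the other 5. Chance marks about 1 in 20 such groups. All 3 were in chow-fed Lama4 fl/fl. Col1a2 was lowest in mouse 3, at 8.76 log2 CPM, with the nearest other mouse at 10.1. Col5a1 was highest in the same mouse, at 7.76 log2 CPM, with the nearest at 7.30. Col6a3 was lowest in mouse 1, at 7.56 log2 CPM, with the nearest at 8.75. Mouse 3 is among the 5 left out of the 19-mouse fit and mouse 1 is not.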

How the results depend on the processing

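The number of the 10 genes called was 1 for Lama4 AKO against fl/fl on chow and 0 elsewhere. On chow it was 0 with limma-voom, with only the groups compared, with the replicate block, with the adjusted p-value in place of the unadjusted, and with 19 mice in limma-voom or under the adjusted p-value. For HFD in Lama4 AKO it was 1 with DESeq2 and with the adjusted p-value, 2 with 19 mice in edgeR or limma-voom, 3 with sample quality weights and 4 with 19 mice under the adjusted p-value. For diet averaged over genotypes it was 1 with the adjusted p-value and 2 with 19 mice in edgeR, in limma-voom and under the adjusted p-value. It was 3 for HFD in Lama4 fl/fl with 19 mice under the adjusted p-value, 1 for genotype on HFD with sample quality weights and 1 for genotype averaged over diets without the fold criterion. Over all genes, edgeR called 4.12% for HFD in Lama4 AKO with 24 mice and 15.7% with 19 mice. For diet averaged over genotypes the shares were 2.22% and 21.2%, and for HFD in Lama4 fl/fl 0.173% and 11.8%. Shares over all genes are not given for the other alternatives, so these counts are not read as results about the 10 genes. The cause of the changes between alternatives was not tested. Leaving out each mouse in turn gave 0 to 1 genes for genotype on chow, HFD in Lama4 AKO, diet averaged over genotypes and the interaction, and 0 to 0 in the other 3 comparisons. The fibrillar chains minus collagen VI moved to −0.42 for HFD in Lama4 fl/fl, to −0.32 for genotype on chow and to 0.53 for the interaction with 19 mice. The number called over all genes, from which the background shares come, also moved by over 1.5 times when 1 mouse was left out. It ran from 14 to 63 for HFD in Lama4 fl/fl, 299 to 1169 for HFD in Lama4 AKO, 13 to 91 for genotype on HFD, 4 to 65 for genotype on chow, 29 to 188 for the interaction, 202 to 684 for diet averaged over genotypes and 2 to 9 for genotype averaged over diets.

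Replicate numbers did not pair the mice: 15 of 36 same-number pairs had a correlation of deviations over 0.1 (range −0.53 to 0.71), and a mouse was closest to its own number in 13 of 72 checks. With the replicate block, 1 gene was called for HFD in Lama4 AKO (Col6a3, 0.86, adjusted p = 0.0292, edgeR) and 0 for genotype on chow. Across 670 estimates for the 10 genes under all alternatives other than leaving out a mouse, 33 changed sign, and none of those had an unadjusted p of at most 0.05 in either fit. Counts of 450 or more per gene and library mean that the spread between mice, not counting, limits these results.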
